A study of Mus musculus with 2 samples.

Results

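The genes described here are 10 regulators and markers of the epithelial-mesenchymal transition (EMT): the transcription factors Snai1, Snai2, Zeb1, Zeb2 and Twist2, the mesenchymal markers Vim, Cdh2 and Fn1, and the epithelial regulators Esrp1 and Ovol1. They were chosen by name from the 37074 gene names of the array, with earlier results of these data known, and 25 probes carry one of these names. RNA came from mDE6 cells, a mouse line labelled as odontogenic epithelial cells, that is, cells of the tooth-forming epithelium. There was 1 array of control cells, labelled as treated with the solvent DMSO for 6 h, and 1 array of cells treated with CHIR99021 for 6 h, an inhibitor of the kinase GSK-3 that activates the β-catenin pathway. The label gives the dose as 5 mM and the study's methods as 5 μM, and the methods call the control untreated. Both arrays hold the same line with no labelled genetic change, and with 1 array per condition no value below has a replicate check or a p-value. Both lay on 1 slide, and position on the slide and condition cannot be told apart.

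During EMT, epithelial cells loosen their junctions and take up a mesenchymal form. SNAI, ZEB and TWIST proteins drive it: they bind short DNA elements called E-boxes and repress epithelial genes such as Cdh1, which encodes E-cadherin. ESRP1 keeps epithelial splice forms and OVOL1 represses EMT factors, so both are counted on the epithelial side. β-catenin is both a partner of E-cadherin at junctions and the effector of Wnt signalling, and GSK-3 is known to destabilise Snail protein, which an RNA measurement does not show.

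The stretches below are what the array measured for some of the members, and no probe of Zeb1, Zeb2, Cdh2 or Ovol1 is shown. For Snai1, Snai2, Vim and Twist2 the first 30 of the 60 bases of the probe are given, and for Fn1 and Esrp1 the whole probe, 5′ to 3′ on the strand of the gene. Positions are those of the files, in mm9, and no annotation of that build was used to place them in exons.
Snai1, chr2:167368073-167368132, plus strand: gtttcacagcagtttaactgtctcagaagg
Snai2, chr16:14709361-14709420, plus strand: gtgaggtacggttaatagccacgcctatat
Vim, chr2:13504232-13504291, plus strand: gcagtttttcaggagcgcaagatagatttg
Twist2, chr1:93744519-93744577, plus strand: ttattgagatattttaccagctaagtgact
Fn1, chr1:71637422-71639659, minus strand: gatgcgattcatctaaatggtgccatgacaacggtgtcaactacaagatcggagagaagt
Fn1, chr1:71694694-71695800, minus strand: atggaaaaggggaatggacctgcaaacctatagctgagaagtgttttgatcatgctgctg
Esrp1, chr4:11284629-11284688, minus strand: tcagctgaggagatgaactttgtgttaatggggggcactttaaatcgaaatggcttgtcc
The 2 Fn1 probes of 60 bases span 2238 and 1107 bases of the genome, so each crosses at least 1 intron and reads spliced RNA. The 60-base probes shown for Fn1 and Esrp1 each have at least 1 reading frame without a stop.

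Control mDE6 cells gave signal for all 8 members on the mesenchymal side of this set and for neither on its epithelial side. Each of the 8 had at least 1 probe that the scanner software marked as well above background on both arrays. The exceptions were Esrp1, with 3 probes, and Ovol1, with a single probe, all below that mark on both arrays. Because the set was chosen with earlier results known, the split between its sides describes this set only. Their relatives Esrp2 and Ovol2 were measured. Levels are given as multiples of the 75th percentile of the spots on the same array, which was 486.7 for control and 469.17 for CHIR99021. Raw units are the signals before this scaling, and each ratio below is of scaled levels, not of the raw units printed beside it. The lowest level among probes well above background was 0.0486 for control and 0.0561 for CHIR99021. Levels of different probes were not set against each other, because probes differ in how brightly they report the same amount of RNA.

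The wider lists of the pathway, also chosen with earlier results known, were counted on the control array too. Of 30 further mesenchymal markers, 29 had a probe well above background, the exception being Fap. Of 26 further EMT factors and drivers it was 23, all except Snai3, Klf8 and Gsc. Of 42 further epithelial markers and regulators it was 13, against 18114 of all 37074 gene names (48.9%). Cdh1 and Epcam, the defining adhesion molecules of epithelia, stayed below that mark on both arrays, as did the keratins Krt8, Krt15 and Krt19. The single Cdh1 probe read 5.51 in control and 6.13 in CHIR99021-treated cells in raw signal units, and the Epcam probe 5.23 and 5.76, below the 23.7 and 26.3 of the dimmest probes well above background. Epithelial genes that were measured included Trp63, a transcription factor of stratified epithelia, at 2306 and 2896 raw units at its brightest probe, and Krt14, a basal keratin, at 48.5 and 54.6. A second Trp63 probe went the other way, from 77.1 to 5.58, at least 2.83-fold lower without meeting the criteria, but its spot on the control array was uneven, with pixel SD over mean of 0.462. The other Trp63 probes were below that mark on both arrays.

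**Figure D1:**
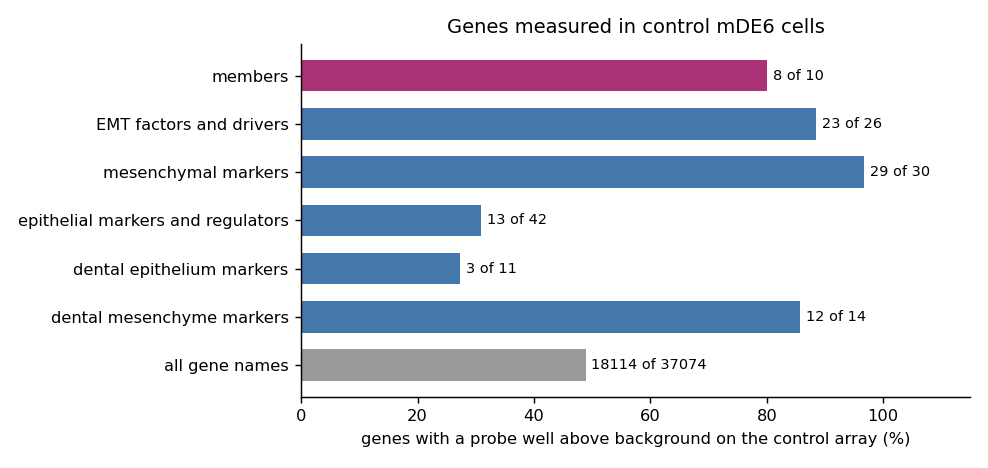
Share of genes measured in control cells, that is, with at least 1 probe well above background (x axis, percent), for the 10 members, the 3 wider EMT lists, 2 lists of dental markers and all gene names; the number beside each bar is the count. Mesenchymal markers reached 29 of 30 and epithelial markers and regulators 13 of 42.

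The labelled cell type was checked with markers of dental tissues. Of 11 dental epithelium markers, 3 were well above background in control cells, namely Krt14, Trp63 and Sfn, and 6 were not on either array. Of 14 dental mesenchyme markers it was 12, all except the odontoblast genes Dspp and Dmp1. Of these lists, 6 and 7 genes stand also in the EMT lists above. By these counts most of the dental epithelium markers were below that mark in control cells labelled as epithelial, and the cells are called mDE6 cells below. To set the arrays against each other within a list, the levels of the brightest probe per gene were summed. The sum for dental epithelium was 5.22 in control and 7.32 in CHIR99021-treated cells, of which 1 Trp63 probe made up 4.74 and 6.17. The sum for dental mesenchyme was 917 and 866, of which 1 probe each of Col1a2 and Col1a1 made up 556 and 252 in control cells. The sums thus rest on single probes and do not show a shift of a list, and they were not compared with each other. Among the dental epithelium markers 2 met the criteria given below for higher, Sfn with a ratio of 1.99 and Krt5, which is described below, and among the dental mesenchyme markers 1 met those for lower, Lhx8, with a ratio of 0.539 and 0.855 at its other probe. Endothelial markers were well above background in control cells for 1 of 5 genes, nerve and glia markers for 3 of 5 and blood markers for 5 of 5, although Ptprc was so at only 1 of its 7 probes. The part of these genes in the results below was not tested.

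After 6 h of CHIR99021 none of the 8 measured members met the criteria for a higher or a lower level. The criteria asked for a ratio of CHIR99021 over control of at least 1.5 with a Z-score of at least 2.0, or a ratio of at most 0.66 with a Z-score of at most -2.0, where the Z-score sets the log2 ratio against the 500 probes nearest in mean signal. Over all 28066 probes tested, 2.35% met the criteria for higher and 2.72% those for lower. By the ratio alone, 0 of the 8 members were higher and 0 lower at their highest-signal probe. Of all 18 tested member probes, 1 was higher and 0 lower, against 8.24% and 9.68% of all tested probes. The 1 was a dim Zeb1 probe, well above background on the CHIR99021 array only. The members' ratios lay between 0.710 for Snai2 and 1.24 for Zeb1, with 6 below and 2 above 1. Their median log2 ratio was -0.12, and that of all 28066 tested probes was 0.03.

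**Figure D2:**
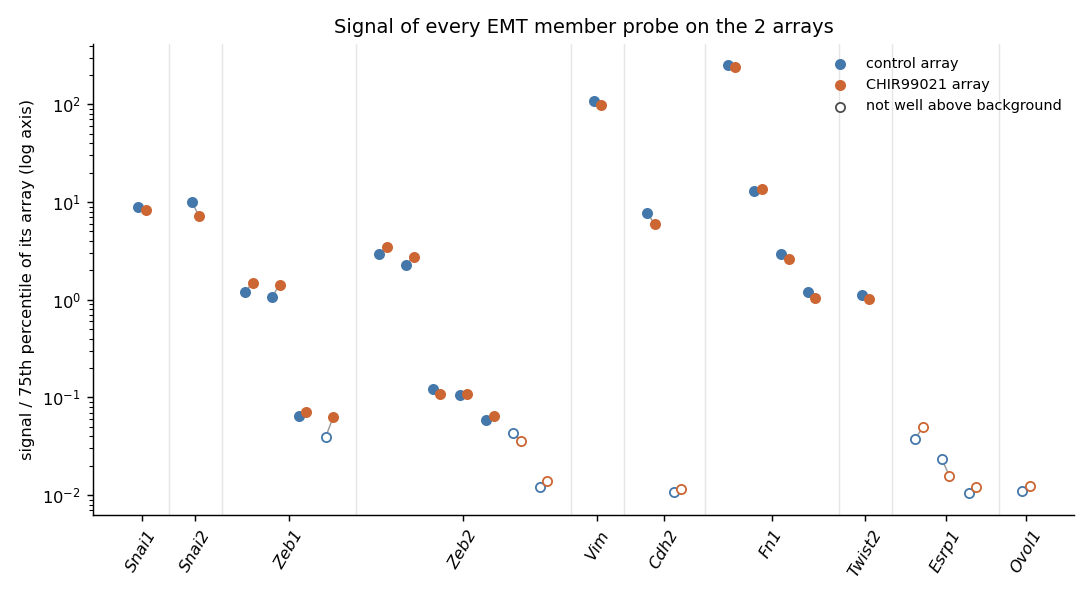
Signal of each of the 25 member probes on the control array and the CHIR99021 array, as a multiple of the array's 75th percentile on a log axis, with open circles for spots not well above background and 1 pair of points per probe. The pairs of all 8 measured members lie close together, and every spot of Esrp1 and Ovol1 is open.

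Snai1 and Snai2 encode the zinc finger factors Snail and Slug, which repress Cdh1. The Snai1 probe read 4347 raw units in control and 3881 in CHIR99021-treated cells, or 8.93 and 8.27 times the 75th percentile. Its ratio was 0.926 (log2 ratio -0.11, Z-score -0.53), so the RNA of this factor was nearly level between the arrays. Snai2 read 4913 and 3364 raw units, or 10.1 and 7.17 times the 75th percentile. Its ratio, 0.710 (log2 ratio -0.49), was the lowest among the members, and its Z-score of -1.79 did not reach -2.0. Both genes are represented by 1 probe each, both in the later rows of the array.

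Zeb1 and Zeb2 encode zinc finger homeobox repressors of epithelial genes and were the members with ratios above 1. For Zeb1 the brightest of 4 probes read 585 raw units in control and 702 in CHIR99021-treated cells, a ratio of 1.24 (Z-score 0.86). A second probe read 518 and 668, a ratio of 1.34, and another, dim probe read 31.4 and 33.5, a ratio of 1.11. All 3 Zeb1 probes measured on both arrays thus lay above 1, but none reached 1.5. The remaining Zeb1 probe was well above background on the CHIR99021 array only, at 29.4 raw units against 19 in control cells, so its level was at least 1.29-fold higher and no exact ratio can be given.

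Zeb2 has 7 probes, of which 5 were well above background on both arrays and 2 on neither, the latter at chr2:44965914-44965973 and chr2:44951878-44951937. Its brightest probe, at chr2:44842774-44842833, read 1426 and 1638 raw units, a ratio of 1.19 (Z-score 0.61). The next, at chr2:44844068-44844127, read 1110 and 1296, a ratio of 1.21, so the pair of bright probes gave nearly the same ratio. The other 3 measured probes were dim, between 28.5 and 59.9 raw units in control cells, with ratios of 0.883, 1.02 and 1.1. Of the 5 ratios, 4 were above 1 and 1 was below.

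Twist2 encodes a basic helix-loop-helix factor of mesenchymal cells. Its only probe read 549 raw units in control and 477 in CHIR99021-treated cells, or 1.13 and 1.02 times the 75th percentile. The ratio was 0.901 and the Z-score -0.39. Its relative Twist1, known for its role in mesenchyme of the head and teeth, read 647 and 967 raw units, a ratio of 1.55. Twist1 passed the ratio criterion but not the Z-score criterion, at 1.67, and its spot lay in row 381, close to the end of the array.

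Vim encodes vimentin, the intermediate filament of mesenchymal cells. Its probe read 52302 raw units in control and 45883 in CHIR99021-treated cells, 107.5 and 97.8 times the 75th percentile, and neither spot was saturated. The ratio was 0.910 and the log2 ratio -0.14. Its Z-score of -1.32 was farther from 0 than those of Snai1 and Twist2, whose ratios were similar, since each Z-score is set against probes of like brightness.

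Cdh2 encodes N-cadherin, the cadherin that takes the place of E-cadherin in EMT. Its brighter probe read 3777 raw units in control and 2779 in CHIR99021-treated cells, 7.76 and 5.92 times the 75th percentile. The ratio was 0.763, a log2 ratio of -0.39, and the Z-score was -1.43. A second Cdh2 probe was below the mark for background on both arrays, at 5.27 and 5.44 raw units, so the value rests on 1 probe.

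Fn1 encodes fibronectin, a matrix protein that rises in EMT, and all 4 of its probes were measured on both arrays. The brightest, at chr1:71632116-71632175, read 122012 raw units in control and 114519 in CHIR99021-treated cells, a ratio of 0.974 (Z-score -0.63). The first of the intron-spanning probes shown above read 6371 and 6359, a ratio of 1.04 after scaling, from 13.1 to 13.6 times the 75th percentile, and the second 1427 and 1227, a ratio of 0.892. The probe at chr1:71650690-71650749 read 590 and 488, a ratio of 0.859. Of the 4 ratios, 3 were below 1 and 1 was above, and they spanned 0.859 to 1.04, so the probes did not give Fn1 a common direction.

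Esrp1 encodes a splicing regulator of epithelia. Its 3 probes read 18.3, 11.3 and 5.08 raw units in control cells and 23.1, 7.34 and 5.71 in CHIR99021-treated cells, all below the dimmest probes well above background. Ovol1, a zinc finger repressor of epidermis, read 5.32 and 5.88 at chr19:5550257-5550316. No ratio is given for either gene. Their relatives Esrp2 and Ovol2 were measured: Esrp2 read 64.9 and 37.9 raw units, a ratio of 0.606 (Z-score -0.68), and Ovol2 read 2239 and 1797 at 1 of its 2 probes, a ratio of 0.832. Esrp2 passed the ratio criterion for lower but not the Z-score criterion, and its spot lay in the later rows.

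The members' differences were set against the measuring error. The scanner software's own error for these log2 ratios was 0.20 to 0.21, and 4 of the 8 members, Snai2, Cdh2, Zeb1 and Zeb2, differed by more than that, as did 47.2% of the 25025 probes measured on both arrays. Among 282 probes printed 10 times, the SD of the log2 ratio between spots had a median of 0.03, and all 8 members differed by more than this, as did 91.4% of the probes measured on both arrays. That SD holds no variation between cultures, so neither comparison shows that a difference came from the treatment.

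**Figure D3:**
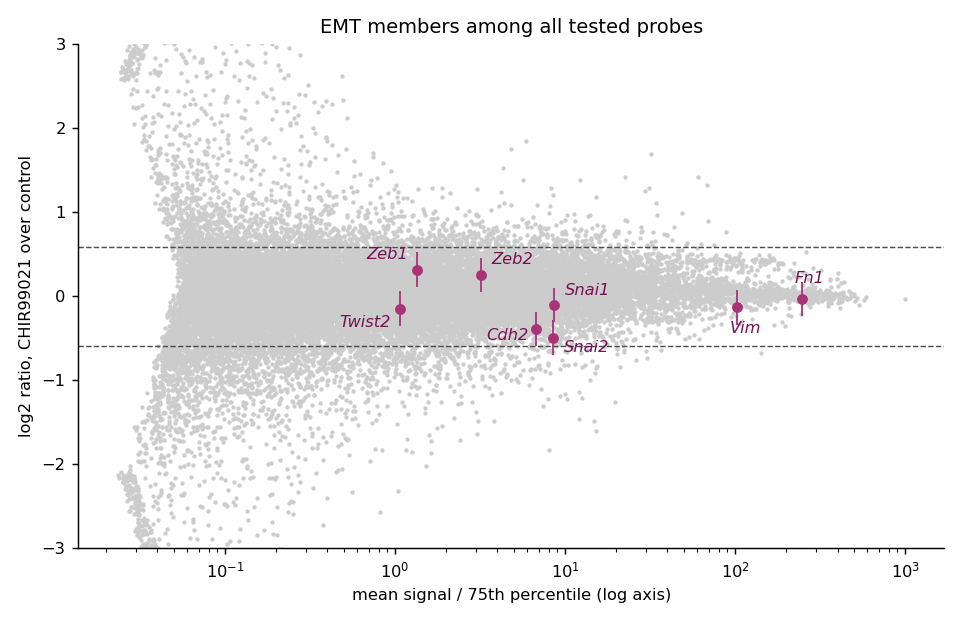
Log2 ratio of CHIR99021 over control (y axis, limited to values within 3 of 0, which leaves out 775 probes) against the mean signal of both arrays as a multiple of the 75th percentile (log axis), for all 28066 tested probes in grey and the highest-signal probe of the 8 measured members in colour, with the scanner software's error as bars. Dashed lines mark ratios of 1.5 and 0.66, and all 8 members lie between them.

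Uneven spots were more frequent in the later rows, by a limit on pixel SD over mean taken from the earlier rows. Among probes measured on both arrays they made up 0.78% on the control and 0.74% on the CHIR99021 array in the earlier rows. In the later rows it was 1.80% and 1.85%. The criteria were met by 4.33% of the probes measured on both arrays in the later rows and 3.13% in the earlier rows. Whether unevenness plays a part in this was not tested. Of the 25 member probes, 15 lay in the later rows, past row 192. Of the member spots well above background, 1 was uneven, with an SD of its pixels over their mean above 0.262, and it was a dim Zeb2 spot on the control array. The 4 members with a measured probe in the earlier rows were Zeb1, Zeb2, Fn1 and Twist2, and there the highest-signal probes gave ratios of 1.34, 1.19, 0.892 and 0.901.

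Known targets of β-catenin were read as a check of the treatment. Lef1, the DNA-binding partner of β-catenin, read 239 raw units in control and 690 in CHIR99021-treated cells, a ratio of 3.0 (Z-score 4.05) at 1 of its 3 probes, the others being below background. The feedback inhibitor Axin2 read 7.23 and 37.9 at 1 probe, at least 1.66-fold higher but with a Z-score of 0.91 that did not meet the criteria, and was not well above background at its other probe. Nkd1, another feedback inhibitor, was at least 25.8-fold higher, but its spot on the CHIR99021 array was uneven, with pixel SD over mean of 0.401.

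Among the 26 further EMT factors and drivers, 23 were tested, of which 2 met the criteria for higher, 3 those for lower and 18 neither, with a median log2 ratio of -0.12. The higher ones were Tgfb2, a ligand that induces EMT, from 365 to 681 raw units, a ratio of 1.94, and Hif1a, a factor of the hypoxia response, from 16505 to 25342, a ratio of 1.59. A second Tgfb2 probe gave a ratio of 2.06, and its Z-score, 1.98, was just short of the criteria. The lower ones were Id2 and Id3, inhibitors of helix-loop-helix factors and known targets of BMP signalling, and Smad3, a transducer of TGF-β signals. The raw signal of Id2 fell from 1028 to 305 raw units, a ratio of 0.308 (Z-score -4.54). Id3 fell from 7640 to 3153, a ratio of 0.428 (Z-score -4.36). Smad3 had a ratio of 0.556, and 0.574 at its other probe, where the Z-score of -1.66 missed the criteria. The brightest probes of Tgfb2, Id2 and Id3 lay in the earlier rows of the array and those of Hif1a and Smad3 in the later rows.

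Among the 30 further mesenchymal markers, 29 were tested and 1 met the criteria, for lower, with a median log2 ratio of -0.11. It was Thbs1, encoding the matrix protein thrombospondin-1, which fell from 10004 to 5101 raw units, a ratio of 0.529, and whose other probe gave 0.457. S100a6, Spp1 and S100a4 passed the Z-score criterion for lower, at -3.03, -2.43 and -2.22, but not the ratio criterion, at 0.778, 0.728 and 0.713. Of all tested probes, 2.72% met the criteria for lower. Ratios of the 28 markers measured on both arrays spanned 0.529 to 1.27.

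Among the 42 further epithelial markers and regulators, 17 were tested, of which 3 met the criteria for higher and 0 those for lower, with a median log2 ratio of -0.19. Of all tested probes, 2.35% met the criteria for higher and 2.72% those for lower. Only 9 of the 17 genes were measured on both arrays at the probe used, also with a median of -0.19. By the ratio alone 4 of the 17 were higher and 5 lower, beside 8.24% and 9.68% of all tested probes. Of the 5 lower ones Cdh3, encoding P-cadherin, and Esrp2 were measured on both arrays. Cdh3 read 649 and 381 raw units, a ratio of 0.609 (Z-score -1.90). Of the 3 genes that met the criteria for higher, 1 was measured on both arrays, Grhl1, a Grainyhead-like factor of epidermis, from 102 to 219 raw units, a ratio of 2.22 (Z-score 2.26). The other two, named after their values were seen, were the basal keratin Krt5 and the desmosomal gene Pkp1, which were not well above background in control cells and at least 7.24-fold and 5.04-fold higher after CHIR99021. Their spots on the CHIR99021 array, in rows 379 and 377, were uneven, with pixel SD over mean of 0.323 and 0.363, and the part of this unevenness in their values was not tested. The lists' counts and medians describe these 2 arrays, and no list was tested against another.

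**Figure D4:**
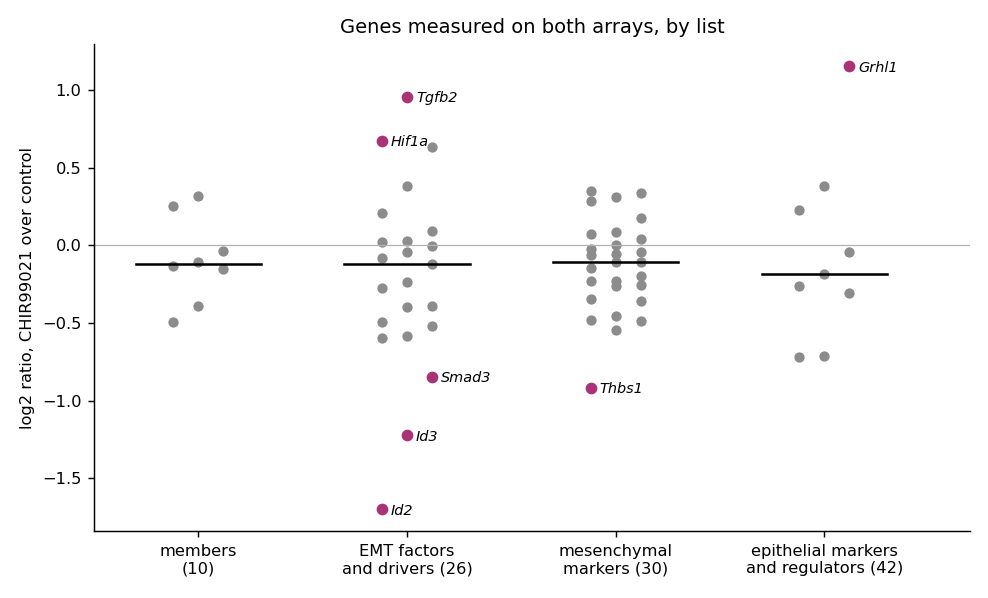
Log2 ratio of CHIR99021 over control for every gene whose highest-signal probe was well above background on both arrays, in the members and the 3 wider lists (listed genes in brackets), 1 point per gene, with a black line at the median. Coloured, named points met the criteria: 0 of the members, 5 EMT factors and drivers, 1 mesenchymal marker and 1 epithelial gene.

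The E-box that Snail and ZEB proteins bind was looked for as CAGGTG, on both strands, so also as CACCTG, in RefSeq promoters of assembly GRCm38.p6, from 250 bases before to 50 after each start. It stood in 20.2% of all 32851 promoters. Promoters were matched for 4 of the 10 members, and of these Snai1 held it and Vim, Twist2 and Zeb2 did not. The Snai1 window is shown because it is the E-box of a member's own promoter, and those of Epcam because that gene was below background, with the E-box in capitals.
Snai1, chr2:167538044-167538093, plus strand: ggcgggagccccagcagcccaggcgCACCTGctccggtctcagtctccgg
Epcam, chr17:87635767-87635816, plus strand: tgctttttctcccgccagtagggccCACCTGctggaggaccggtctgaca
Epcam, chr17:87635935-87635978, plus strand: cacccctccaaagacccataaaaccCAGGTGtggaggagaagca
The element began 126 bases before the Snai1 start, and 187 and 19 bases before that of Epcam. By gene, 18 of the 26 epithelial markers and regulators with a promoter in the table held it, 2 of 19 mesenchymal markers and 1 of 17 EMT factors and drivers, beside 6098 of all 27025 genes. The letters of a TCF/LEF element, CTTTGA or TCAAAG, stood in 16% of all promoters and in 0 of the 4 members' genes. A match is a description of these letters only, and binding was not measured.

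The members' ratios were recomputed under other ways of scaling, filtering and choosing probes. Over these, Snai2 stayed between 0.677 and 0.731, Cdh2 between 0.733 and 0.785, Zeb1 between 1.20 and 1.34 and Zeb2 between 1.07 and 1.23. Snai1, Vim and Twist2 stayed below 1 in each that could be run for them, and the earlier rows taken alone hold no probe of Snai1, Snai2, Vim or Cdh2. Fn1 reached 1.00 with its sign turned when arrays were scaled by the median of all probes.

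**Figure D5:**
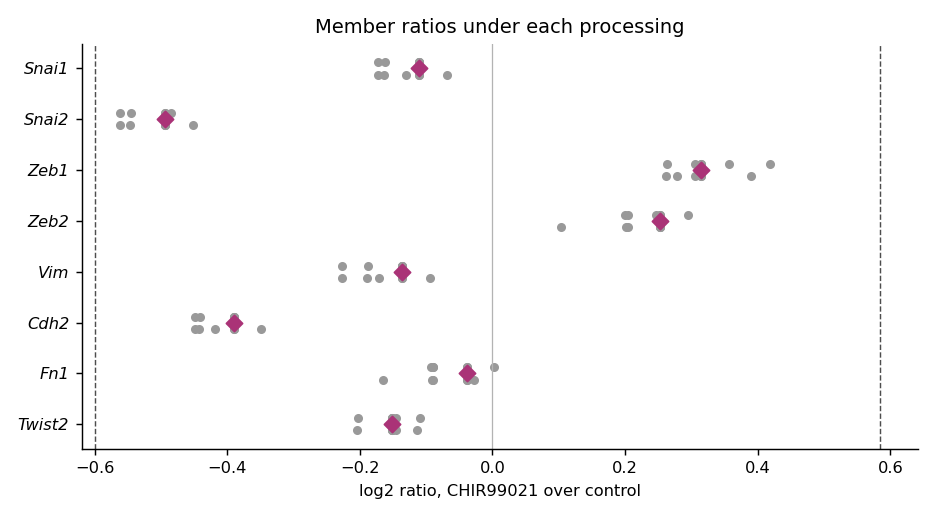
Log2 ratio of CHIR99021 over control (x axis) of the 8 measured members as reported (diamonds) and under each other processing (grey points), with dashed lines at ratios of 0.66 and 1.5. No point lies beyond the dashed lines, and Fn1 alone has a point on the other side of 0.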

How the data were processed

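The authors hybridised Cy3-labelled RNA of 1 control and 1 CHIR99021 sample to Agilent arrays, and deposited the intensity of each spot after background subtraction, from Feature Extraction (10.7.1.1 in the file headers, 9.5.1.1 in the submitters' processing notes), with no scaling between arrays. They also deposited a table of normalized intensity values, used here as an alternative. The methods name a human array, while the headers name a mouse design and mm9.

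Log2 intensity minus the 75th percentile of the array was computed in pandas 2.3.3 with numpy 2.4.6 under Python 3.11.15, and normexp with an offset of 50 in limma 3.58.1 (R 4.3.3). Control spots and outlier spots were left out and spots of a probe averaged. The tested probes were those the software marked as well above background on 1 or both arrays. A gene took its highest-signal probe. A bound used the higher of the dim spot's own signal and the lowest signal well above background on that array. The number of arrays limits the precision. The calls were tested on simulated data. Accessions of 16 of the 25 member probes were found in the RefSeq table, all 16 with the same symbol, and the array's names were kept.

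The members and lists were chosen with earlier results of these data known. Some genes of the lists as first written are not reported here, and no list's count or median holds them. Named were all members with every probe, genes of the 3 wider EMT lists meeting the criteria and measured on both arrays, 5 relatives or defining genes (Cdh1, Epcam, Twist1, Ovol2, Esrp2) and 3 treatment targets. Other genes, among them Krt5, Pkp1, Trp63, Krt14, Cdh3, Sfn, Lhx8, Prrx2, S100a6, Spp1, S100a4 and the genes named as exceptions to a count, were named after their values were seen. Figures were drawn with matplotlib 3.10.9.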

Additional observations from a re-analysis of the deposited data

How the results depend on the processing

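Under 13 alternatives no member met the criteria for higher or lower, in each case 0, the ratio criterion alone included. The members' median log2 ratio, -0.12 as reported, was -0.16 with quantile normalization and with the authors' normalized table, -0.082 with scaling by the median of all probes, -0.18 without scaling and with the percentile taken only over probes that both arrays measured, and -0.075 with no filter on dim probes, which lets in Esrp1 and Ovol1. In the earlier rows alone it was 0.051, over the 4 members with a probe there. Of 92 recomputed ratios of single members, 48 moved by no more than the spot-to-spot SD, 44 by more, and 1, Fn1 with median scaling, turned its sign, to 0.003. Many of the 48 could not move. Changing the filter on dim probes, raising dim signals to the lowest signal well above background or leaving out uneven spots kept each member's highest-signal probe and its value. The mean over probes likewise kept the value of members with 1 tested probe. The 48 thus do not show that the ratios are stable. No paired analysis was possible because a condition holds a single array. Signal over background sets the limit for Esrp1 and Ovol1, whose change below background cannot be read, and for the dim probes of Zeb1 and Zeb2.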
